A study of Mus musculus with 18 samples.

Results

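Lung messenger RNA was compared between BMSC-treated mice and untreated mice of a chronic obstructive pulmonary disease (COPD) model, the airway and alveolar disease that follows long smoke exposure. The comparison used every listed gene in 6 of the 18 libraries of the series, 3 for each of these groups, and 3 control mRNA libraries entered the same fit to estimate the spread. BMSC-treated mice were exposed to cigarette smoke, were injected intraperitoneally with cigarette smoke extract and had a tail vein injection of 4000000 BMSCs with 100 µl of phosphate-buffered saline (PBS). BMSCs are the mesenchymal stem cells of the sample labels. COPD model mice had the same smoke and extract and received PBS alone, and control mice received PBS with no smoke or extract in their labels. The sources used here state neither strain nor age, and give no origin for the BMSCs. Separate mice are not named for the libraries, so p-values measure the spread between libraries, which may be technical. Of 13384 listed genes, 11765 reached 1 FPKM (fragments scaled to transcript length and library size) in at least 3 of the 9 mRNA libraries and were tested. Lung markers were present in all 9 libraries: deposited FPKM of Sftpc, a surfactant protein of alveolar type 2 cells, was 614 to 3249. Ager, a marker of alveolar type 1 cells, was 14.7 to 128.8 FPKM and Cdh5, the endothelial cadherin, was 5.51 to 53.3 FPKM.

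Scgb1a1 encodes the secretoglobin that club cells, the secretory cells of the small airways, release in large amounts. Its mRNA can be among the most abundant of the lung. The mitochondrial chromosome encodes subunits of the respiratory chain, and its transcripts carry short poly(A) tails, so that oligo dT captures them together with nuclear mRNA. FPKM is a share of a library, and when such abundant transcripts take more of it, every other gene reads lower without a change of its own. Cigarette smoke is known to induce oxidant-responsive detoxifying enzymes through the transcription factor NRF2 and to induce cyclooxygenase 2, the product of Ptgs2, which makes the precursor of prostaglandins. Mesenchymal stem cells are studied in lung injury mainly for the factors they release.

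The libraries differed in the share held by these transcripts, as the stacked bars of library composition show. The 13 mitochondrially encoded genes (named with mt-) took 92.2%, 70.8% and 55.6% of the FPKM in BMSC-treated lungs, 30.0%, 28.3% and 23.9% in COPD model lungs and 89.3%, 65.1% and 46.9% in control lungs. BMSC-treated libraries averaged 72.9% ± 18.4 and COPD model libraries 27.4% ± 3.16 (SD, n = 3 each), with no overlap. The two-sided exact permutation p was 0.1, the smallest that 3 against 3 can give. Scgb1a1 alone took 1.32%, 6.19% and 6.27% in BMSC-treated lungs, 39.2%, 39.2% and 33.0% in COPD model lungs and 1.02%, 10.5% and 19.0% in control lungs. The Scgb1a1 means were 4.60% ± 2.83 in BMSC-treated and 37.1% ± 3.58 in COPD model libraries (SD, n = 3 each), with the same exact p of 0.1. Each share was also taken without the other. Scgb1a1 held 17.1%, 21.2% and 14.1% of the FPKM outside the mt- genes in BMSC-treated lungs, against 56.1%, 54.7% and 43.4% in COPD model lungs. The mt- genes held 93.5%, 75.5% and 59.4% of the FPKM outside Scgb1a1 in BMSC-treated lungs, against 49.4%, 46.55% and 35.7% in COPD model lungs. Their means there were 76.1% and 43.9%, closer together than the 72.9% and 27.4% of all FPKM. BMSC-treated 1 stood apart, with 6.44% of its FPKM left for all other genes and 1193 genes listed at 0. Control 1 was alike, with 9.73% left and 1038 genes at 0, and the other 7 libraries had 107 to 201 genes at 0. Results are therefore also given without BMSC-treated 1 and control 1. Fewer cells of a type and less RNA per cell cannot be told apart in such bulk tissue.

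**Figure D1:**
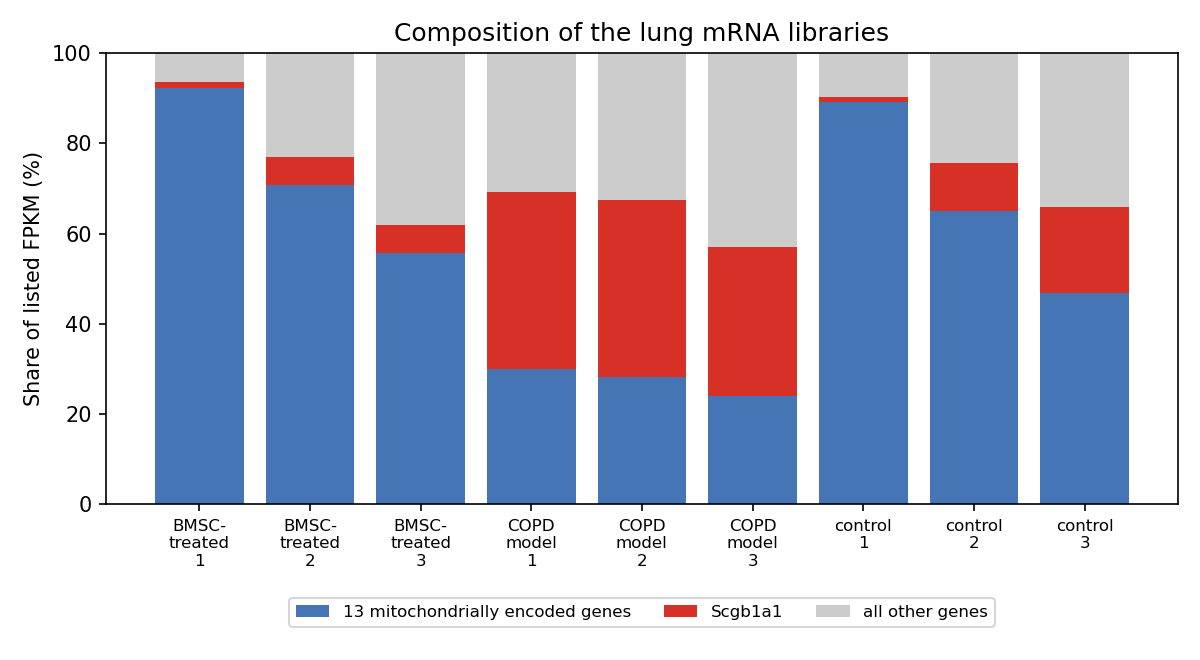
Share of the listed FPKM (%, vertical axis) held by the 13 mitochondrially encoded genes, by Scgb1a1 and by all other genes in each mRNA library. Mitochondrial transcripts held 55.6% to 92.2% in the BMSC-treated libraries and 23.9% to 30.0% in the COPD model libraries, and Scgb1a1 held 1.32% to 6.27% in the BMSC-treated and 33.0% to 39.2% in the COPD model libraries.

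The values as deposited carried this composition into every gene. The median gene was 0.75 log2 units lower in BMSC-treated lungs, a change of -0.75 in log2(FPKM + 1), and 5.93% of genes were above 0. Without BMSC-treated 1 the deposited median was -0.31, with 20.0% of genes above 0. Each library was then rescaled so that its FPKM, summed over genes other than Scgb1a1 and the mt- genes, equalled the mean of that sum over the 9 libraries. After rescaling the median change was -0.16, with 34.9% of genes above 0, and without BMSC-treated 1 and control 1 it was -0.05. The rescaled FPKM places a gene relative to the rest of the nuclear transcriptome. Its log2 change is BMSC-treated minus COPD model in log2(rescaled FPKM + 1), with the SE from limma after the ± sign. Adding 1 before the logarithm understates the change of low genes.

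**Figure D2:**
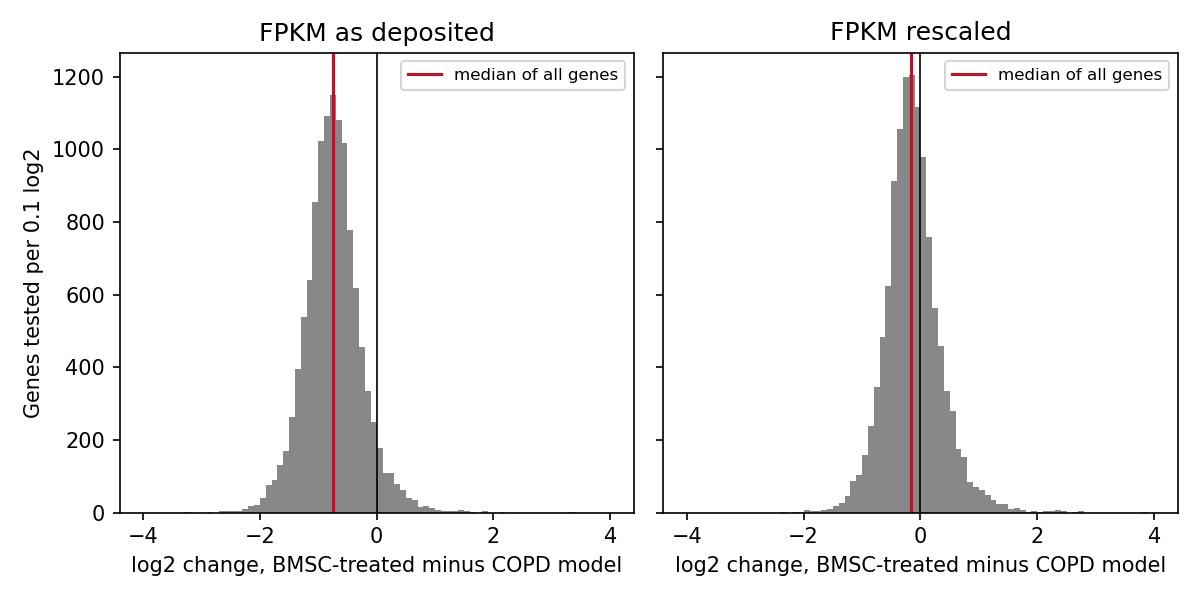
Histograms of the log2 change of 11765 genes, BMSC-treated minus COPD model, for the FPKM as deposited (left) and rescaled (right), with genes per 0.1 log2 units on the vertical axis. The median, drawn in red, lies at -0.75 as deposited and at -0.16 after rescaling.

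On the deposited scale, 15 genes passed an adjusted p of 0.05 with limma, 0.127% of those tested. The 8 that rose, 0.068% of genes, were all mitochondrially encoded, and the 7 that fell, 0.0595%, were Scgb1a1, Ptgs2, Upk1a, Ugt1a1, Ugt1a2, Ugt1a5 and the unnamed locus Gm17606. Scgb1a1 (chromosome 19, 9083642 to 9087956) had 9073, 34870 and 30970 FPKM in BMSC-treated lungs, 248500, 230400 and 159400 in COPD model lungs and 6546, 60700 and 99540 in control lungs. All BMSC-treated values lay below all COPD model values, as they did for 31.0% of genes on this scale, where 0.272% lay wholly above. Its log2 change was -3.29 ± 0.37 (SE, adjusted p = 4.31e-10), or -2.53 relative to the median gene. That p rests on the mean-variance trend of limma: the residual SD of Scgb1a1 itself was 1.37 log2 units, against 0.46 used by the test. Of the mt- genes, mt-Nd5, a subunit of complex I, had 28650, 21290 and 11620 FPKM in BMSC-treated lungs, 4924, 7064 and 4681 in COPD model lungs and 29670, 18360 and 12200 in control lungs. Its change of 1.81 ± 0.38 (adjusted p = 0.0167) was the largest of the 13. mt-Co1, the catalytic subunit of complex IV, had 72230, 50410 and 35070 FPKM in BMSC-treated lungs and 22440, 20730 and 14300 in COPD model lungs, a change of 1.42 ± 0.30 (adjusted p = 0.0167). The other mt- genes that passed were mt-Nd1, mt-Nd2, mt-Nd4, mt-Nd4l, mt-Cytb and mt-Atp8, with changes of 1.38 to 1.68. mt-Co2, mt-Co3, mt-Nd3, mt-Atp6 and mt-Nd6 did not pass. mt-Nd6, the only protein gene of the light strand, had 1347, 1094 and 655 FPKM in BMSC-treated lungs and 657, 792 and 397 in COPD model lungs, a change of 0.74 ± 0.62. Reads of mt- genes may also match nuclear copies.

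The calls depended on single libraries. None of the 15 passed without BMSC-treated 1, where no other gene did either (smallest adjusted p 0.192). Of the 15, 2 were called without BMSC-treated 2 (4 calls in all), 8 without COPD model 2 (9 calls), 4 without COPD model 3 (4 calls), and 15 without control 1 (35 calls) or control 3 (24 calls). With neither BMSC-treated 1 nor control 1, 10 genes passed, among them 2 of the 15, Scgb1a1 (-2.67, adjusted p = 0.00089) and Ptgs2 (-2.80, adjusted p = 0.00089). After rescaling, no gene passed (0.0%; smallest adjusted p 0.27 with limma), while 390 genes were higher and 528 lower at an unadjusted p under 0.05, or 3.31% and 4.49% of genes. Scgb1a1 still had 30580, 39950 and 24470 rescaled FPKM in BMSC-treated lungs, against 189700, 179100 and 113800 in COPD model lungs and 15540, 63940 and 83080 in control lungs (change -2.34 ± 0.71, unadjusted p = 0.00876). The mt- genes had rescaled changes of 1.69 to 2.76, with 12 of 13 free of overlap between the groups, all higher, and their median of 2.37 became 1.50 without BMSC-treated 1 and control 1. Over all genes tested, 6.25% were higher and 14.2% lower without overlap after rescaling. Since no gene passed after rescaling, "higher" and "lower" there describe values, and the p-values given are unadjusted or limma's adjusted over all genes tested.

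Ptgs2 (chromosome 1, 150100031 to 150108234), the inducible cyclooxygenase, was called on the deposited scale with all libraries and on both scales without BMSC-treated 1 and control 1. As deposited it fell by 2.84 ± 0.64 log2 units (adjusted p = 0.0244), or -2.09 relative to the median gene. It had 3.14, 0.813 and 1.27 rescaled FPKM in BMSC-treated lungs, against 9.32, 10.7 and 10.9 in COPD model lungs and 2.16, 3.04 and 5.80 in control lungs. The BMSC-treated and COPD model libraries did not overlap, and every control library lay below every COPD model library. The rescaled change was -2.13 ± 0.36 (unadjusted p = 0.000198, adjusted p = 0.52), and without BMSC-treated 1 and control 1 it was -2.48 (adjusted p = 0.0413). Areg (chromosome 5, 91139599 to 91148432), amphiregulin, an epidermal growth factor receptor ligand of injured epithelium, had 1.08, 3.89 and 4.91 rescaled FPKM in BMSC-treated lungs, against 20.5, 13.8 and 9.998 in COPD model lungs and 2.53, 5.66 and 4.12 in control lungs. Its groups did not overlap, and its change was -1.95 ± 0.43 (unadjusted p = 0.00123, adjusted p = 0.52). The start-site windows of these genes are shown because both were lower in every BMSC-treated library. They run from 250 bases before to 50 after the RefSeq start (GRCm38.p6): chr1:150099781-150100080 on the plus strand for Ptgs2, and chr5:91139349-91139648 on the plus strand for Areg. Capitals mark the cyclic AMP response element core TGACG or its reverse complement.
Ptgs2: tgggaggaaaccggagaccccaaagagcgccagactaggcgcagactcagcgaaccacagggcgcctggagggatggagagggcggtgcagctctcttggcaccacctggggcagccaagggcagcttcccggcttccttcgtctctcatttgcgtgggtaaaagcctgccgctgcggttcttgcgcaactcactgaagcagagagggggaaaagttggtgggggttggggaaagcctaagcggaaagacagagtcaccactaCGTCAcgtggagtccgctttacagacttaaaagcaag
Areg: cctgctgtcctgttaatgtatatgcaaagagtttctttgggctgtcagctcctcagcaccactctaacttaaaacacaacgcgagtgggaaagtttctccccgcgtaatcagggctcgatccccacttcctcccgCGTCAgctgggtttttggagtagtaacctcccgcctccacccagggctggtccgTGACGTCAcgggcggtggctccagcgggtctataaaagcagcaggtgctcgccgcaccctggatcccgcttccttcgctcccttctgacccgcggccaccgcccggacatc
The single Ptgs2 match begins 13 bases after the annotated start, on the minus strand. Areg holds 3 matches, of which the overlapping pair 61 and 58 bases before the start reads the same on both strands. TGACG on either strand was present in 20.8% of all 32851 windows. Of the 9139 tested genes with a window, 35.0% had it in any of their windows, a share per gene and not per window. A match is thus common and is no more than a description.

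The prostanoid pathway as a whole had no common direction. Of 22 listed synthesis enzymes and receptors, 14 were tested, 6 higher and 8 lower after rescaling, with a median change of -0.07, which was 0.05 without BMSC-treated 1 and control 1. Libraries did not overlap for 1 higher and 4 lower genes, where 6.25% and 14.2% of all genes were free of overlap in these directions. Ptgr1, an enzyme of leukotriene B4 and prostaglandin metabolism, had 8.89, 13.3 and 12.6 rescaled FPKM in BMSC-treated lungs, against 38.3, 44.5 and 35.0 in COPD model lungs and 9.36, 17.9 and 40.4 in control lungs (change -1.69 ± 0.43, unadjusted p = 0.00319). The COPD model libraries lay above the BMSC-treated ones, but control 3 was among them. Ptges3, a prostaglandin E synthase and Hsp90 co-chaperone, had 64.9, 87.6 and 88.7 rescaled FPKM in BMSC-treated lungs and 91.8, 107 and 92.4 in COPD model lungs, a change of -0.28 ± 0.30. Hpgd, which inactivates prostaglandins, ranged from 97.2 to 299 rescaled FPKM in BMSC-treated lungs and from 77.6 to 171 in COPD model lungs, and the groups overlapped.

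Upk1a and 3 genes of the Ugt1a locus made up most of the remaining lower calls, all at low levels. Upk1a (chromosome 7, 30603092 to 30612734), a uroplakin known from urothelium, was listed at 0 in all 3 BMSC-treated libraries and had 1.72, 2.11 and 3.22 FPKM in COPD model lungs and 0, 0.322 and 4.05 in control lungs (adjusted p = 0.0282). Ugt1a enzymes attach glucuronic acid to bilirubin and xenobiotics, and they share their last exons at 1 locus on chromosome 1, so their reads may be split between them. Ugt1a5 had 0, 2.14 and 0 FPKM in BMSC-treated lungs, against 9.12, 6.76 and 3.54 in COPD model lungs and 0, 0 and 2.07 in control lungs (adjusted p = 0.0184). Ugt1a1 had 0, 0 and 0.0814 FPKM in BMSC-treated lungs and 0, 7.45 and 7.69 in COPD model lungs, and Ugt1a2 had 0, 0 and 0 in BMSC-treated lungs and 0, 8.82 and 3.75 in COPD model lungs. Both passed with limma (adjusted p = 0.0282 and 0.0244) although COPD model 1 was listed at 0, so their groups overlapped. These p-values also rest on the mean-variance trend. The residual SDs of Ugt1a1 and Ugt1a2 were 1.31 and 1.11 log2 units, against 0.57 and 0.50 used by the test. Of 9 members of the locus 7 were tested, with a median rescaled change of -0.98, and -0.68 without BMSC-treated 1 and control 1. Its most abundant member, Ugt1a6a, had 10.2, 8.92 and 8.77 rescaled FPKM in BMSC-treated lungs, against 10.7, 11.7 and 7.52 in COPD model lungs and 10.4, 12.1 and 18.8 in control lungs, a change of -0.07 ± 0.26 with overlapping groups. Ugt1a7c had 0, 1.23 and 4.15 rescaled FPKM in BMSC-treated lungs and 0.920, 0.824 and 2.02 in COPD model lungs, a change of 0.04 ± 0.61, also with overlap. Gm17606 was listed at 0 in the BMSC-treated libraries and had 3.80, 2.32 and 1.09 FPKM in COPD model lungs. Each of the 5 called genes, Upk1a, Ugt1a1, Ugt1a2, Ugt1a5 and Gm17606, missed the threshold without BMSC-treated 1.

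Platelet transcripts stood at the other end. The highest-ranked genes after rescaling were Nrgn, neurogranin, whose mRNA is also known from platelets, and Gp9, a subunit of the platelet receptor for von Willebrand factor, each at an adjusted p of 0.27. Nrgn (chromosome 9, 37544493 to 37552745) had 149, 57.6 and 83.1 rescaled FPKM in BMSC-treated lungs, against 9.16, 11.9 and 18.4 in COPD model lungs and 49.0, 54.5 and 35.8 in control lungs, a change of 2.73 ± 0.37. Gp9 (chromosome 6, 87776131 to 87779786) had 55.6, 23.4 and 33.9 rescaled FPKM in BMSC-treated lungs, against 3.14, 3.79 and 7.20 in COPD model lungs and 14.9, 26.9 and 14.6 in control lungs, a change of 2.74 ± 0.39. For both genes all BMSC-treated and all control libraries lay above all COPD model libraries. Without BMSC-treated 1 and control 1 the changes were 2.36 for Nrgn and 2.42 for Gp9. Ppbp, a platelet chemokine precursor, had 179.7, 105 and 117 rescaled FPKM in BMSC-treated lungs, against 20.4, 17.8 and 43.4 in COPD model lungs and 64.4, 155 and 92.8 in control lungs. Pf4 (chromosome 5, 90772435 to 90773383), platelet factor 4, had 146, 72.1 and 95.0 rescaled FPKM in BMSC-treated lungs, against 33.5, 26.5 and 32.4 in COPD model lungs and 47.5, 81.3 and 55.8 in control lungs. Their changes were 2.33 ± 0.42 and 1.67 ± 0.30 (unadjusted p = 0.000275 and 0.000307). The start-site windows of Gp9 (chr6:87777820-87778119, plus strand) and Pf4 (chr5:90772185-90772484, plus strand) follow, as members of this group, with the ETS element AGGAAG and the GATA element AGATAA or their reverse complements in capitals. The Gp9 window belongs to a start site that RefSeq places inside the gene span given above, not at its outer end.
Gp9: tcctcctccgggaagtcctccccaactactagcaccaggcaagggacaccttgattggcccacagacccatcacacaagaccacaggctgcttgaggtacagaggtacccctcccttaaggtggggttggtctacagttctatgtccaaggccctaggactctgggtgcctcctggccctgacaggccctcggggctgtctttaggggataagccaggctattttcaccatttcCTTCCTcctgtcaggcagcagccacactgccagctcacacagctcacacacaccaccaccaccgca
Pf4: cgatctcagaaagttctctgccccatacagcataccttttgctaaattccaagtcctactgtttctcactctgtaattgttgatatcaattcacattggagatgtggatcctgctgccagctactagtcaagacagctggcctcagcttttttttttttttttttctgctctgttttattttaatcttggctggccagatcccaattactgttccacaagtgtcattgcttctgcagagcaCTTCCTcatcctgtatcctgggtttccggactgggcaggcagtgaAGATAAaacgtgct
Counted per gene over any of its windows, AGGAAG on either strand was in 7 of the 11 tested platelet genes. It was in 37.6% of all tested genes with a window. AGATAA was in 4 of the 11 and in 7.78% of all tested genes with a window. In Gp9 the match begins 16 bases before that start site. In Pf4 the ETS match begins 9 bases before it and the GATA match 36 bases after it.

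Of 12 listed platelet and megakaryocyte genes 11 were tested, and all 11 were higher after rescaling, with a median change of 1.28. It was 1.01 without BMSC-treated 1 and control 1, and 0.60 on the deposited scale. Libraries did not overlap for 10 of the 11, where 6.25% of all genes were higher without overlap. An unadjusted p under 0.05 was reached by 9, against 3.31% of all genes in this direction. The summed level of the list was 239 to 437 rescaled FPKM in BMSC-treated lungs, 63.3 to 105 in COPD model lungs and 148 to 318 in control lungs. Red cell transcripts, which also come with blood, were likewise higher after rescaling in all 7 tested genes, but their groups overlapped. The 7 tested erythroid genes summed to 703 to 5835 rescaled FPKM in BMSC-treated lungs, 294 to 921 in COPD model lungs and 866 to 4784 in control lungs. None of the 7 was free of overlap, and their median change of 1.50 became 0.46 without BMSC-treated 1 and control 1. Hba-a1, an alpha globin, had 1544, 219 and 202 rescaled FPKM in BMSC-treated lungs, against 77.8, 68.7 and 227 in COPD model lungs and 1304, 251 and 216 in control lungs, so the highest values came from BMSC-treated 1 and control 1. The part of blood content in the platelet values was not tested.

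**Figure D3:**
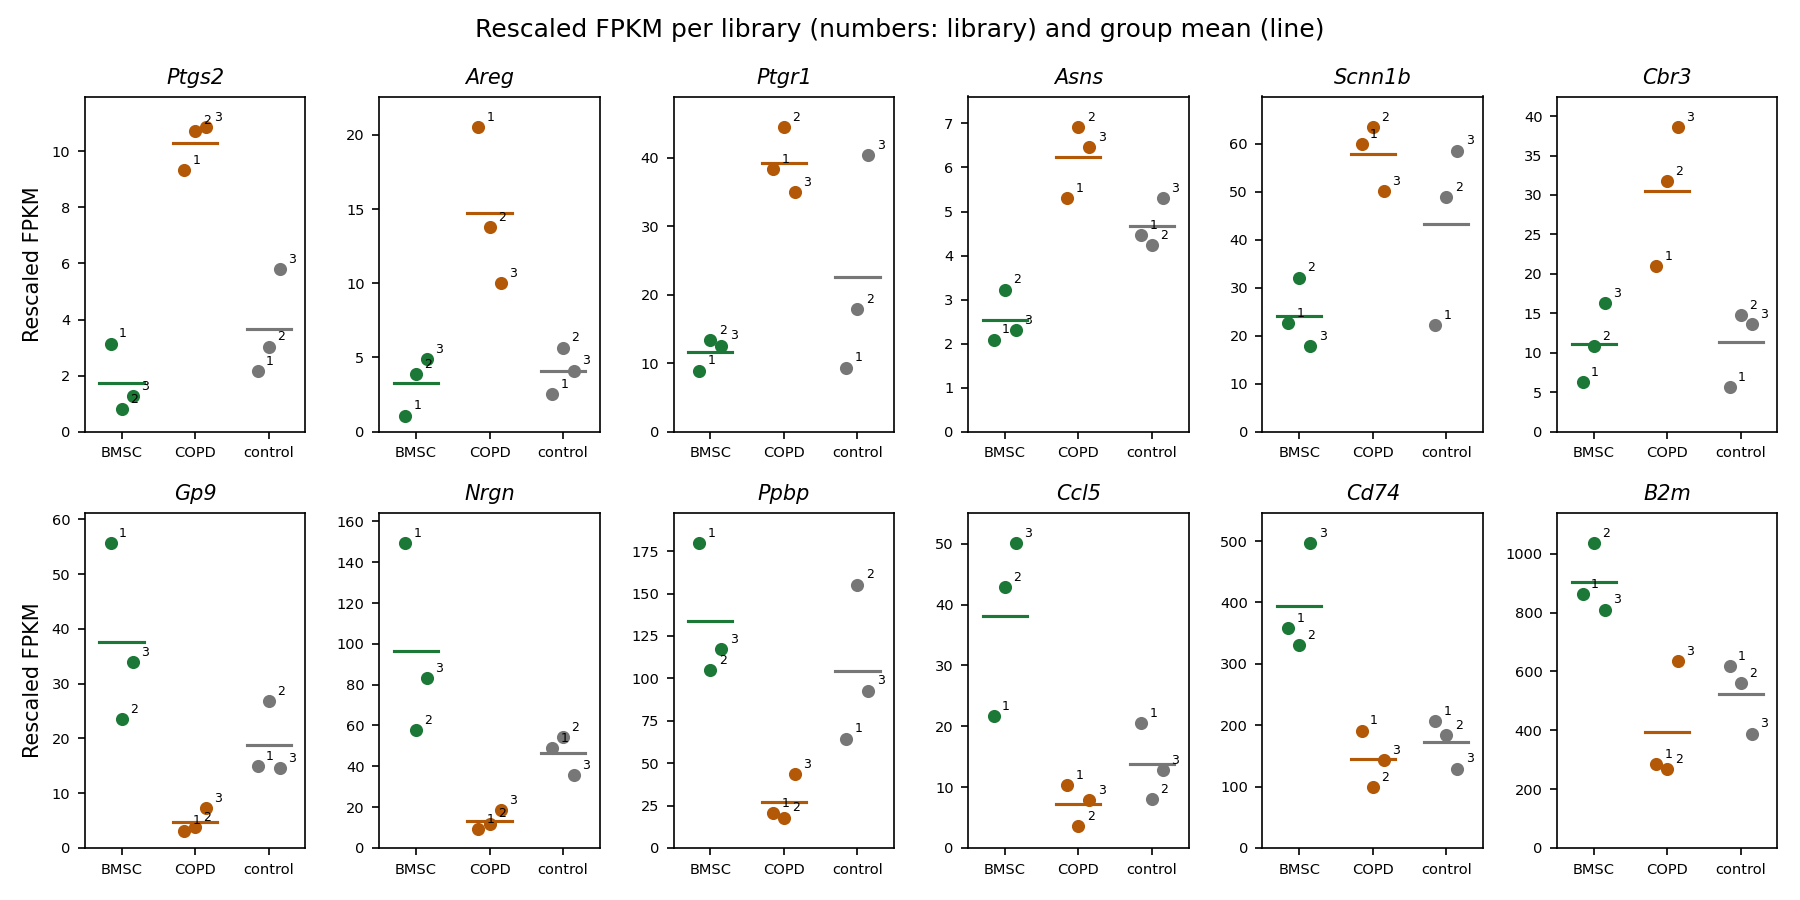
Rescaled FPKM (vertical axes, each from 0) of 12 genes in each BMSC-treated, COPD model and control library, with numbers for the library and a line for the group mean. The upper row shows genes lower in BMSC-treated lungs, such as Ptgs2 with 0.813 to 3.14 in BMSC-treated lungs and 9.32 to 10.9 in COPD model lungs. The lower row shows higher genes, such as Gp9 with 23.4 to 55.6 in BMSC-treated lungs and 3.14 to 7.20 in COPD model lungs.

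Lymphocyte genes were also mostly higher in BMSC-treated lungs after rescaling. Of 20 listed T and NK cell genes 14 were tested and 13 were higher after rescaling, with a median change of 1.0 (0.56 as deposited). Of the 14, 7 were free of overlap, all higher, where 6.25% of all genes were higher without overlap. Ccl5 (chromosome 11, 83525778 to 83530518), a T cell and platelet chemokine, had 21.6, 42.8 and 50.1 rescaled FPKM in BMSC-treated lungs, against 10.3, 3.62 and 7.90 in COPD model lungs and 20.6, 8.03 and 12.8 in control lungs. Its change was 2.25 ± 0.45 (unadjusted p = 0.000624, adjusted p = 0.52), and all 3 BMSC-treated libraries lay above all 6 others. Gzmb, the granzyme of cytotoxic cells, had 1.16, 3.06 and 4.74 rescaled FPKM in BMSC-treated lungs, against 0, 0.471 and 0.859 in COPD model lungs, a change of 1.40 ± 0.39. Of the B and plasma cell genes 11 of 18 were tested, 9 higher and 2 lower, with a median of 0.73. Of the 11, 3 were free of overlap, all higher, against 6.25% of all genes. Groups overlapped for the 3 most abundant members, Jchain (change 0.88 ± 1.04), Sdc1 (-0.64 ± 0.48) and Xbp1 (-0.82 ± 0.92). Cd79a, a chain of the B cell receptor complex, had 11.3, 9.26 and 35.3 rescaled FPKM in BMSC-treated lungs, against 6.59, 1.44 and 1.32 in COPD model lungs and 7.60, 11.02 and 3.01 in control lungs. The B cell antigen Ms4a1 had 0.986, 1.38 and 4.16 rescaled FPKM in BMSC-treated lungs and 0.722, 0.142 and 0.161 in COPD model lungs. For Cd79a and Ms4a1 BMSC-treated 3 was the highest library. Without BMSC-treated 1 and control 1 the list medians were 1.29 for T and NK cells and 0.98 for B and plasma cells.

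Antigen presentation genes were mostly higher after rescaling. Of 19 listed genes 15 were tested, with a median rescaled change of 0.60, which was -0.31 as deposited and 0.73 without BMSC-treated 1 and control 1. A total of 7 were free of overlap, all higher, against 6.25% of all genes in this direction. Cd74, the invariant chain of class II molecules, had 358, 330.0 and 497 rescaled FPKM in BMSC-treated lungs, against 191, 99.5 and 144 in COPD model lungs and 206, 184 and 129 in control lungs (change 1.47 ± 0.31, unadjusted p = 0.000951). B2m, the light chain of class I molecules, had 864, 1036 and 811 rescaled FPKM in BMSC-treated lungs, against 285, 268 and 634 in COPD model lungs and 619, 561 and 389 in control lungs. All BMSC-treated libraries exceeded all COPD model and control libraries for both. Ctss, the protease that trims the invariant chain, is listed with the emphysema proteases treated below. It had 52.8, 49.0 and 75.6 rescaled FPKM in BMSC-treated lungs and 34.7, 31.4 and 43.5 in COPD model lungs. Its change was 0.67 ± 0.23 after rescaling and -0.25 as deposited.

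Myeloid lists had medians of 0.32 to 0.65 after rescaling. Monocyte and interstitial macrophage genes (14 of 17 tested) had a median of 0.64 after rescaling and -0.22 as deposited. Without BMSC-treated 1 and control 1 the rescaled median was 0.455. Of the 14, 13 were higher and 4 were free of overlap, all higher, against 6.25% of all genes. Groups overlapped for the 3 most abundant members, Lyz2 (change 0.95 ± 0.42), Apoe (0.53 ± 0.51) and Cd14 (-0.55 ± 0.31). Ly6c2, a marker of inflammatory monocytes, had 2.53, 4.77 and 4.76 rescaled FPKM in BMSC-treated lungs, against 1.83, 0.768 and 1.30 in COPD model lungs and 2.38, 2.12 and 1.91 in control lungs (change 1.12 ± 0.27). Adgre1, the F4/80 antigen of macrophages, had 3.22, 2.78 and 2.41 rescaled FPKM in BMSC-treated lungs, against 1.23, 0.812 and 1.57 in COPD model lungs and 3.54, 1.29 and 2.35 in control lungs. The 14 tested alveolar macrophage genes of 17 had a median of 0.32 after rescaling and -0.33 as deposited, and they ranged from -1.44 to 1.19. After rescaling 9 were higher and 5 lower, and 3 were free of overlap, all higher, against 6.25% of all genes. The most abundant members, Car4 (change 0.51 ± 0.41), Plet1 (-0.92 ± 0.74) and Ear2 (1.19 ± 0.40), all had overlapping groups. Ear2, an eosinophil-associated ribonuclease of macrophages, had 10.96, 21.9 and 34.5 rescaled FPKM in BMSC-treated lungs and 6.82, 6.13 and 13.5 in COPD model lungs. Cd68, a lysosomal protein of macrophages, had 6.25, 6.78 and 12.2 rescaled FPKM in BMSC-treated lungs and 1.93, 2.52 and 5.39 in COPD model lungs. Neutrophil genes (10 of 16 tested) had a median of 0.65, which was 0.41 without BMSC-treated 1 and control 1. Of the 10, 3 higher and 1 lower were free of overlap, against 6.25% and 14.2% of all genes. S100a9, a calcium-binding protein of neutrophils, had 283, 119 and 123 rescaled FPKM in BMSC-treated lungs, against 44.3, 94.6 and 40.8 in COPD model lungs and 1016, 492 and 59.9 in control lungs. Its highest values came from control 1 and control 2.

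Cytokines and interferon-responsive genes followed the same direction. Of 26 listed cytokines and chemokines 18 were tested, with a median of 0.56 after rescaling and -0.07 as deposited. Of the 18, 3 were free of overlap, all higher, against 6.25% of all genes. Ccl4, a chemokine for monocytes and lymphocytes, had 2.39, 1.22 and 3.31 rescaled FPKM in BMSC-treated lungs, against 1.05, 0.617 and 0 in COPD model lungs and 0, 0 and 0.239 in control lungs. Interferon-stimulated genes (18 of 20 tested) had a median of 0.58 after rescaling and -0.10 as deposited. Without BMSC-treated 1 and control 1 the rescaled median was 0.37. Among these genes 6 were free of overlap, all higher, against 6.25% of all genes. Gbp2, an interferon-induced guanylate-binding protein, had 41.4, 28.8 and 15.4 rescaled FPKM in BMSC-treated lungs, against 7.89, 7.61 and 15.3 in COPD model lungs and 28.5, 14.9 and 9.38 in control lungs. BMSC-treated 3 and COPD model 3 lay close together for Gbp2. The cytosolic ribosomal protein genes were also higher, 25 of 26 after rescaling with a median of 0.46, which was 0.30 without BMSC-treated 1 and control 1 and -0.47 as deposited. Rpl32, of the large subunit, had 482, 336 and 374 rescaled FPKM in BMSC-treated lungs and 300.5, 183 and 224 in COPD model lungs. The change of Rpl32 was 0.76 ± 0.33 after rescaling and -0.18 as deposited.

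NRF2 target genes, which encode antioxidant and detoxifying enzymes, were lower in BMSC-treated lungs. Of 22 listed genes 21 were tested and 19 were lower after rescaling, with a median of -0.83, or -0.59 without BMSC-treated 1 and control 1. Libraries did not overlap for 15 of the 21, all lower, where 14.2% of all genes were lower without overlap. An unadjusted p under 0.05 was reached by 9, all lower, against 4.49% of all genes in this direction. Hmox1, the inducible haem oxygenase, had 7.25, 8.59 and 6.31 rescaled FPKM in BMSC-treated lungs, against 10.3, 15.6 and 21.1 in COPD model lungs and 7.65, 8.81 and 11.4 in control lungs (change -0.95 ± 0.28, unadjusted p = 0.00725). Cbr3, a carbonyl reductase, had 6.28, 10.9 and 16.3 rescaled FPKM in BMSC-treated lungs, against 20.9, 31.8 and 38.6 in COPD model lungs and 5.65, 14.8 and 13.6 in control lungs (change -1.42 ± 0.42, unadjusted p = 0.00781). For Cbr3 every control library also lay below every COPD model library. Gsta4, a glutathione transferase for lipid peroxidation products, had 38.7, 67.1 and 96.9 rescaled FPKM in BMSC-treated lungs, against 162, 229 and 167 in COPD model lungs and 32.9, 122 and 164 in control lungs. Ces1d, a carboxylesterase, had 73.0, 149 and 170.4 rescaled FPKM in BMSC-treated lungs, against 204, 291 and 284 in COPD model lungs and 86.3, 144 and 264 in control lungs. Gstm1, another glutathione transferase, differed from these, with 224, 257 and 264 rescaled FPKM in BMSC-treated lungs and 175, 219.8 and 236 in COPD model lungs and overlapping groups. The antioxidant response element core TGACNNNGC, sought on either strand, was in the windows of 6 of the 16 tested list genes with a window. It was in those of 16.9% of all tested genes with a window.

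Many detoxifying enzymes are club cell products, and club cell markers are given beside them. Of 17 listed club cell and airway secretory genes 16 were tested, 6 higher and 10 lower after rescaling. The median rescaled change was -0.19, with a range from -2.34 for Scgb1a1 to 2.32 for Bpifa1. Of the 16, 5 were free of overlap, all lower, against 14.2% of all genes. Bpifa1, a secreted airway defence protein named here after its values were seen, had 45.0, 95.2 and 1205 rescaled FPKM in BMSC-treated lungs, against 66.0, 164 and 2.90 in COPD model lungs and 10.1, 769.8 and 86.3 in control lungs, and the groups overlapped. Aldh1a7, an aldehyde dehydrogenase, had 31.5, 45.9 and 42.1 rescaled FPKM in BMSC-treated lungs, against 87.2, 132 and 126 in COPD model lungs and 15.4, 79.4 and 109 in control lungs. Cyp2f2, the cytochrome P450 that marks club cells, had 982, 1900 and 1493 rescaled FPKM in BMSC-treated lungs, against 2229, 2422 and 2286 in COPD model lungs and 675, 2444 and 2765 in control lungs, a change of -0.72 ± 0.52. Scgb3a2, a related secretoglobin, had 1011, 1302 and 1515 rescaled FPKM in BMSC-treated lungs, against 4174, 2584 and 1106 in COPD model lungs, a change of -0.86 ± 0.73 with overlapping groups. The summed level of the list, which is mostly Scgb1a1, was 33140 to 45070 rescaled FPKM in BMSC-treated lungs and 118400 to 199500 in COPD model lungs. Ciliated cell genes (23 of 25 tested) were all lower, with a median of -0.68, which became -0.23 without BMSC-treated 1 and control 1. Only 3 of the 23 were free of overlap, a share near the 14.2% of all genes. The part of epithelial content in the NRF2 target values was not tested.

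The epithelial sodium channel, which draws fluid from the airway and alveolar surface, was lower in its beta and gamma subunits. Scnn1b had 22.7, 32.1 and 17.8 rescaled FPKM in BMSC-treated lungs, against 59.9, 63.5 and 50.1 in COPD model lungs and 22.2, 48.8 and 58.5 in control lungs (change -1.26 ± 0.36, unadjusted p = 0.00641). Scnn1g had 7.81, 7.57 and 6.98 rescaled FPKM in BMSC-treated lungs, against 12.4, 17.2 and 19.5 in COPD model lungs and 8.88, 11.2 and 12.8 in control lungs (change -1.02 ± 0.23, unadjusted p = 0.00146). Atp1b1, the beta subunit of the sodium pump, had 37.5, 69.2 and 61.5 rescaled FPKM in BMSC-treated lungs, against 85.7, 174 and 149.8 in COPD model lungs and 25.8, 113 and 116 in control lungs. Over the 14 tested of 16 channel and aquaporin genes the median was -0.58. Of the 14, 6 were free of overlap, all lower, against 14.2% of all genes. Alveolar type 2 genes had no common direction: 9 of 16 tested were higher and 7 lower after rescaling. Sftpc had 2070, 1841 and 1121 rescaled FPKM in BMSC-treated lungs and 1104, 1310 and 2320 in COPD model lungs, which overlapped. Sftpb, another surfactant protein, had 281, 366 and 248 rescaled FPKM in BMSC-treated lungs, against 426, 571 and 542 in COPD model lungs and 263, 559.5 and 605 in control lungs. Sftpa1, a surfactant collectin, had 316, 312 and 351 rescaled FPKM in BMSC-treated lungs and 588, 497 and 450.1 in COPD model lungs. Napsa, the protease that processes surfactant protein B, was in the other direction, with 27.7, 34.6 and 22.1 rescaled FPKM in BMSC-treated lungs and 7.997, 9.78 and 21.0 in COPD model lungs. Alveolar type 1 genes (15 tested) had a median of -0.35, with 3 higher and 12 lower. Free of overlap were 2 lower and 1 higher, near the 14.2% and 6.25% of all genes. Hopx (change -0.10 ± 0.45) and Emp2 (-0.0018 ± 0.37), the most abundant members, had overlapping groups. Gprc5a, a lung epithelial receptor, had 35.2, 60.9 and 38.6 rescaled FPKM in BMSC-treated lungs, against 65.9, 106 and 178 in COPD model lungs. Its change of -1.28 ± 0.44 was the lowest of the list.

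Lineage transcription factors of the lung epithelium (15 of 16 tested) were higher in 5 and lower in 10, with a median of -0.53, and -0.24 without BMSC-treated 1 and control 1. Of the 15, 4 were free of overlap, all lower, where 14.2% of all genes were. Elf5, an epithelial ETS factor, had 1.53, 3.99 and 2.80 rescaled FPKM in BMSC-treated lungs, against 8.16, 8.84 and 5.98 in COPD model lungs and 1.55, 5.36 and 7.45 in control lungs. Cebpa, needed for type 2 cell differentiation, had 9.76, 12.3 and 15.4 rescaled FPKM in BMSC-treated lungs, against 16.8, 23.6 and 22.1 in COPD model lungs and 12.6, 21.1 and 22.3 in control lungs. Both were lower in every BMSC-treated than in every COPD model library, with changes of -1.24 ± 0.44 and -0.70 ± 0.28. Id2, an inhibitor of helix-loop-helix factors and among the most abundant of the list, had 22.6, 29.0 and 40.1 rescaled FPKM in BMSC-treated lungs and 20.7, 23.9 and 31.5 in COPD model lungs, a change of 0.24 ± 0.28 with overlapping groups.

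Stress-response genes were mostly lower after rescaling, where 34.9% of all genes were above 0. Of 22 unfolded protein and integrated stress response genes, all tested, 18 were lower after rescaling. Their median was -0.53, or -0.26 without BMSC-treated 1 and control 1. Of the 22, 8 were free of overlap, all lower, against 14.2% of all genes. Asns (chromosome 6, 7675165 to 7693209), asparagine synthetase, had 2.09, 3.22 and 2.31 rescaled FPKM in BMSC-treated lungs, against 5.31, 6.92 and 6.46 in COPD model lungs and 4.46, 4.24 and 5.30 in control lungs. Its change was -1.04 ± 0.22 (unadjusted p = 0.000889, adjusted p = 0.52). Control 3 was level with the lowest COPD model library, and the other control libraries lay between the groups. Asns is a known target of the factor ATF4, and its window (chr6:7693160-7693459, minus strand, GRCm38.p6) is shown for the composite element TGATGNAA, in capitals, 23 bases before the start.
Asns: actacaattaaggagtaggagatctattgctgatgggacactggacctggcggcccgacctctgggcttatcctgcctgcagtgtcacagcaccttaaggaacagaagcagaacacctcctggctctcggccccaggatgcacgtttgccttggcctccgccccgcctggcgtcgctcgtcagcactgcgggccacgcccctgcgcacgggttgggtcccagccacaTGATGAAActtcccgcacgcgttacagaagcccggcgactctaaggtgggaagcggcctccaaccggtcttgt
This element, on either strand, was in the windows of 4 of the 21 list genes with a window, Trib3, Chac1, Asns and Herpud1. It was in those of 2.74% of all tested genes with a window. Hsp90b1, the Hsp90 of the endoplasmic reticulum, had 57.5, 108 and 83.4 rescaled FPKM in BMSC-treated lungs, against 149.7, 128 and 133 in COPD model lungs and 54.2, 121 and 147 in control lungs. Pdia6, a disulfide isomerase, had 16.8, 27.7 and 26.8 rescaled FPKM in BMSC-treated lungs and 46.1, 40.3 and 37.7 in COPD model lungs, without overlap.

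Heat shock chaperones (18 tested) had a median of -0.38. Of the 18, 8 lower and 1 higher were free of overlap, against 14.2% and 6.25% of all genes. Hspa1b, an inducible Hsp70, had 0.824, 1.77 and 1.98 rescaled FPKM in BMSC-treated lungs, against 5.34, 5.32 and 4.53 in COPD model lungs and 1.29, 0.994 and 5.11 in control lungs. Hsp90ab1, a constitutive Hsp90, had 183, 214 and 169 rescaled FPKM in BMSC-treated lungs, against 286, 283 and 258 in COPD model lungs. The exception was Cryab, a small heat shock protein of muscle, with 65.4, 43.4 and 40.0 rescaled FPKM in BMSC-treated lungs and 23.2, 19.2 and 26.7 in COPD model lungs. Cardiac muscle markers, which mark the muscle sleeve of pulmonary veins, were higher beside it: 11 of 12 tested genes, with a median of 0.86. Of the 12, 3 were free of overlap, all higher, against 6.25% of all genes. Myl7, an atrial myosin light chain, had 47.0, 130.2 and 129 rescaled FPKM in BMSC-treated lungs, against 13.4, 33.5 and 28.4 in COPD model lungs and 13.8, 339.7 and 9.94 in control lungs, with its highest value in control 2. The part of this tissue in the Cryab values was not tested.

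Glucocorticoid-responsive genes (15 of 16 tested) had a median of -0.36. Of the 15, 3 were free of overlap, all lower, a share not far from the 14.2% of all genes. The most abundant members were Mt1 (change -0.29 ± 0.33, without overlap), Mt2 (-0.07 ± 0.31, with overlap) and Klf9 (-0.47 ± 0.42, with overlap). Fkbp5, a co-chaperone of the glucocorticoid receptor, had 2.03, 1.18 and 1.70 rescaled FPKM in BMSC-treated lungs, against 2.99, 4.91 and 7.40 in COPD model lungs and 1.08, 1.04 and 0.868 in control lungs (change -1.16 ± 0.29, unadjusted p = 0.00266). All 3 control libraries were below all COPD model libraries for Fkbp5. Zbtb16, a steroid-induced transcription factor, had 2.55, 1.98 and 1.09 rescaled FPKM in BMSC-treated lungs and 3.09, 6.38 and 8.82 in COPD model lungs. Per2, a clock gene that glucocorticoids also induce, had 2.07, 4.74 and 6.82 rescaled FPKM in BMSC-treated lungs, against 6.44, 15.8 and 14.9 in COPD model lungs and 0, 1.85 and 5.62 in control lungs, and the groups overlapped. The 17 tested circadian genes had a median of -0.27, or -0.16 without BMSC-treated 1 and control 1, and the 2 that were lower without overlap made up no larger share than the 14.2% of all genes. Immediate early genes (16 of 20 tested) had a median of -0.33, with 6 higher and 10 lower. Free of overlap were 3, all lower, a share not far from the 14.2% of all genes. Among abundant members, groups overlapped for Zfp36 (change -0.34 ± 0.40) but not for Ier2 (-0.58 ± 0.24) and Jund. Jund, a subunit of the AP-1 factor, had 68.0, 81.6 and 82.7 rescaled FPKM in BMSC-treated lungs, against 110.3, 138 and 109.5 in COPD model lungs and 76.4, 68.6 and 88.7 in control lungs. The sources used here do not state the hour of tissue collection.

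Sterol and fatty acid synthesis genes (19 of 20 tested) had a median of -0.29. Of the 19, 6 lower and 1 higher were free of overlap, against 14.2% and 6.25% of all genes. Hmgcs1, the first committed enzyme of the mevalonate pathway, had 8.15, 14.9 and 11.7 rescaled FPKM in BMSC-treated lungs, against 23.1, 21.9 and 24.9 in COPD model lungs and 10.2, 14.4 and 15.2 in control lungs (change -0.98 ± 0.25, unadjusted p = 0.00348). For Hmgcs1 the COPD model libraries were the 3 highest of the 9.

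Genes of emphysema proteases, their inhibitors and the elastic fibre had no common direction, with 6 of 20 tested higher and 14 lower and a median of -0.31, which was -0.03 without BMSC-treated 1 and control 1. Eln, tropoelastin, had 1.57, 5.37 and 2.75 rescaled FPKM in BMSC-treated lungs, against 7.45, 8.33 and 17.9 in COPD model lungs and 5.55, 8.32 and 18.1 in control lungs (change -1.53 ± 0.49). Fbln5, which tethers elastin to microfibrils, had 2.18, 2.98 and 2.89 rescaled FPKM in BMSC-treated lungs, against 0.0972, 0.414 and 1.69 in COPD model lungs and 3.82, 1.31 and 0.357 in control lungs. Fibroblast and matrix genes (23 tested) had a median of -0.03, and 0.42 without BMSC-treated 1 and control 1. TGF-beta, BMP and Wnt signalling genes (24 tested) had a median of 0.01, or 0.11 without these libraries. Ctgf, a matricellular growth factor, had 3.82, 23.9 and 29.4 rescaled FPKM in BMSC-treated lungs, against 67.6, 38.3 and 57.4 in COPD model lungs and 14.2, 7.28 and 35.0 in control lungs; its change of -1.81 ± 0.72 was -0.97 without BMSC-treated 1 and control 1.

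Markers of mesenchymal stem cells had no common direction. Of 15 listed surface markers of mesenchymal stem cells 14 were tested, 7 higher and 7 lower, with a median of -0.0036, or 0.25 without BMSC-treated 1 and control 1. The only member free of overlap was Ly6a, also called Sca-1 and carried by endothelium as well, where 6.25% of all genes were higher without overlap. Ly6a had 106, 144 and 122 rescaled FPKM in BMSC-treated lungs, against 96.0, 80.0 and 93.0 in COPD model lungs and 124, 151 and 66.4 in control lungs. Its change was 0.46 ± 0.31 after rescaling and -0.48 as deposited. Thy1, shared with T cells, had 3.17, 7.84 and 6.07 rescaled FPKM in BMSC-treated lungs and 3.64, 2.09 and 3.98 in COPD model lungs. Of 19 listed factors that such cells are known to secrete, 11 were tested, with a median of -0.04, or 0.09 without these libraries. Tgfb1, transforming growth factor beta 1, had 5.45, 5.30 and 6.28 rescaled FPKM in BMSC-treated lungs, against 1.58, 2.87 and 3.77 in COPD model lungs and 5.83, 4.73 and 4.10 in control lungs (change 0.88 ± 0.26, unadjusted p = 0.00801). Lgals1, galectin 1, had 106, 102 and 141 rescaled FPKM in BMSC-treated lungs, against 77.8, 43.1 and 71.4 in COPD model lungs, a change of 0.88 ± 0.35 that was -0.05 as deposited. Vegfa, the endothelial growth factor that type 1 cells make, had 7.56, 15.3 and 12.4 rescaled FPKM in BMSC-treated lungs, against 14.6, 27.9 and 71.2 in COPD model lungs and 11, 13.2 and 18.6 in control lungs, and its groups overlapped. All these are transcripts that host lung cells make too.

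Nuclear genes of the mitochondrion had medians close to that of all genes after rescaling. The 32 nuclear-encoded respiratory chain genes, all tested, had a median of -0.06, or 0.016 without BMSC-treated 1 and control 1. Of these 3 were higher and 4 lower without overlap, near the 6.25% and 14.2% of all genes, and their summed level was 1228 to 1400 rescaled FPKM in BMSC-treated lungs, 1205 to 1533 in COPD model lungs and 1261 to 1407 in control lungs. Atp5c1, the gamma subunit of ATP synthase, had 49.1, 50.4 and 50.5 rescaled FPKM in BMSC-treated lungs, against 38.1, 31.5 and 35.5 in COPD model lungs and 52.1, 45.8 and 43.3 in control lungs. Atp5j, of the same enzyme, had 33.4, 22.1 and 28.7 rescaled FPKM in BMSC-treated lungs and 18.3, 17.9 and 16.6 in COPD model lungs. Both were free of overlap after rescaling, with changes of 0.51 ± 0.19 and 0.63 ± 0.21, against -0.41 and -0.27 as deposited. Genes for the expression and upkeep of the mitochondrial genome (25 of 26 tested) had a median of -0.23, or -0.09 without BMSC-treated 1 and control 1, with 1 higher and 6 lower free of overlap, against 6.25% and 14.2% of all genes. Lrpprc, which stabilises mitochondrial mRNA, had 0.861, 2.18 and 2.25 rescaled FPKM in BMSC-treated lungs, against 3.93, 4.18 and 3.46 in COPD model lungs and 1.33, 2.41 and 2.86 in control lungs. Lonp1, the matrix protease, had 2.67, 4.36 and 5.68 rescaled FPKM in BMSC-treated lungs, against 6.89, 8.47 and 8.16 in COPD model lungs. Pink1, the kinase that starts mitophagy, was the higher one, with 40.7, 37.5 and 31.9 rescaled FPKM in BMSC-treated lungs and 22.6, 24.6 and 23.7 in COPD model lungs, a change of 0.61 ± 0.24 that was -0.30 as deposited.

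**Figure D4:**
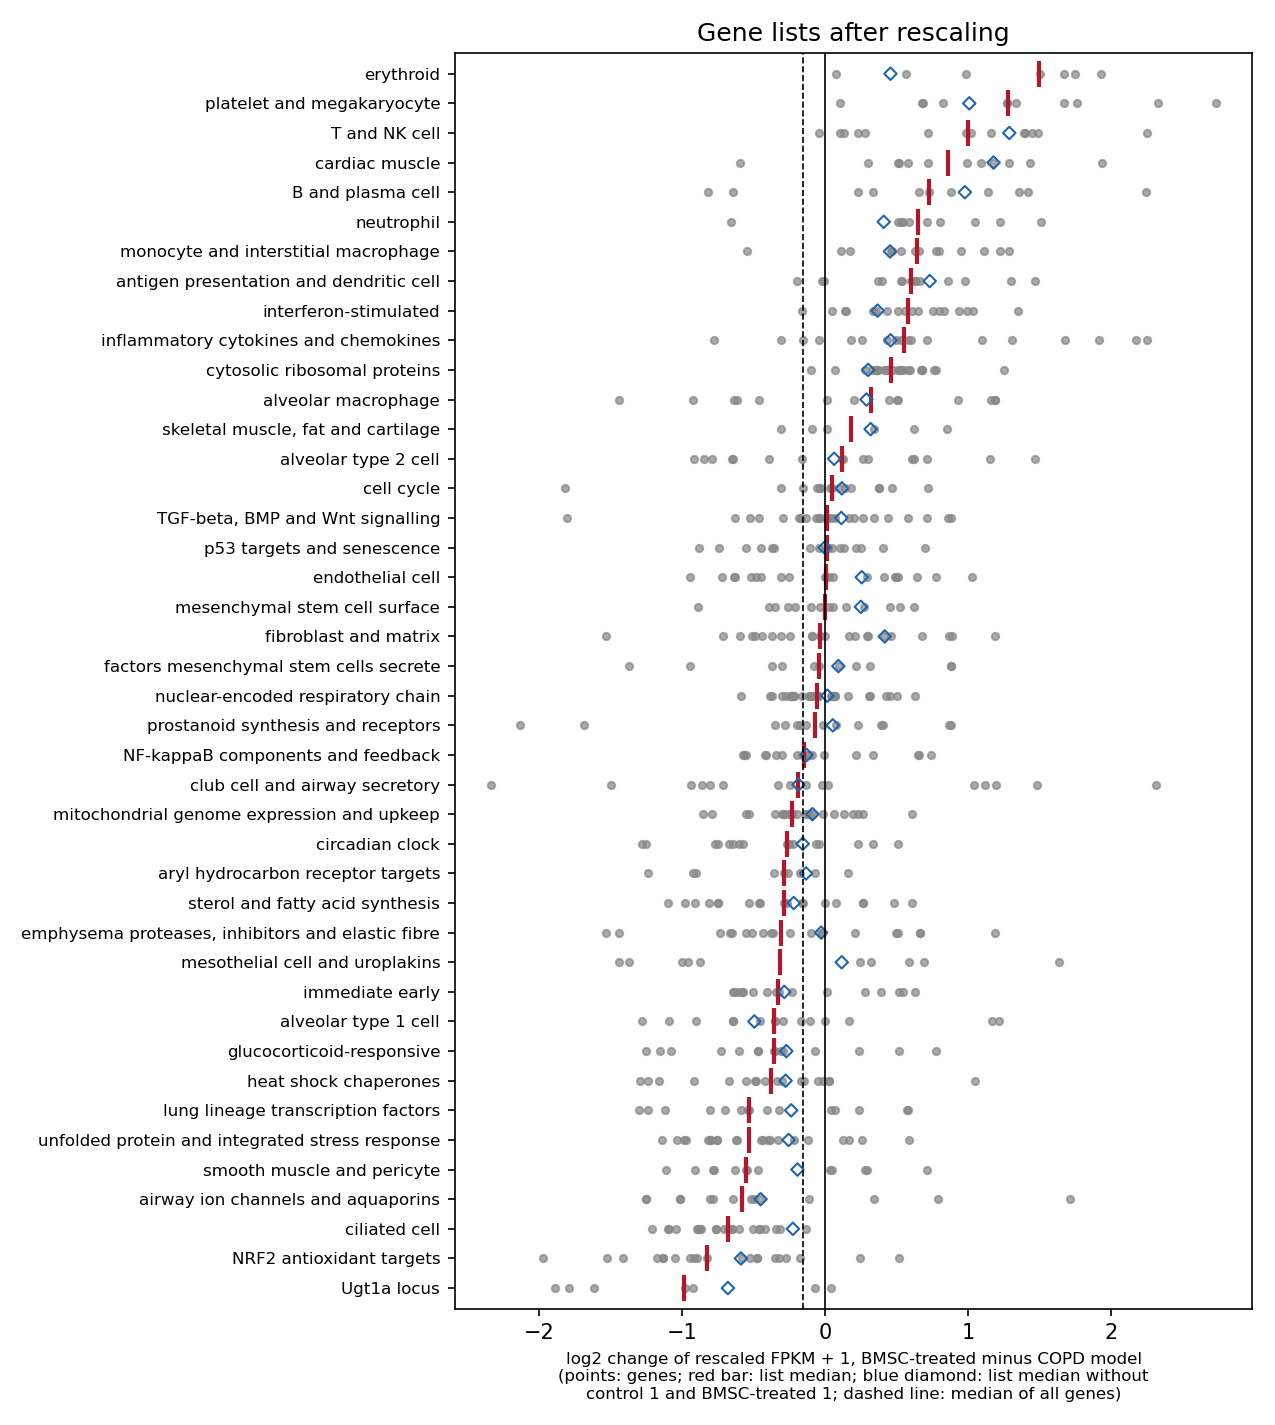
Log2 change of rescaled FPKM, BMSC-treated minus COPD model (horizontal axis), of each gene (points) in 42 gene lists, with the list median (red bar), the list median without control 1 and BMSC-treated 1 (blue diamond) and the median of all genes (dashed line, -0.16). Platelet genes lie around 1.28 and NRF2 targets around -0.83; the erythroid median of 1.50 drops to 0.46 without these libraries.

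Among the remaining genes that ranked highest after rescaling, without overlap, Smim15, a small membrane protein, had 16.9, 23.2 and 18.5 rescaled FPKM in BMSC-treated lungs, against 4.35, 6.51 and 7.64 in COPD model lungs and 13.2, 19.1 and 23.4 in control lungs. Mfge8, which bridges apoptotic cells to phagocytes, had 19.2, 17.3 and 13.4 rescaled FPKM in BMSC-treated lungs, against 7.29, 5.04 and 6.85 in COPD model lungs and 6.96, 4.93 and 7.21 in control lungs, so control lungs were at the COPD model level. Bin2, a BAR-domain protein of blood cells, had 7.04, 4.46 and 8.64 rescaled FPKM in BMSC-treated lungs, against 1.65, 1.92 and 2.31 in COPD model lungs. Ifi206, an interferon-activated gene, had 2.22, 3.605 and 1.87 rescaled FPKM in BMSC-treated lungs, against 0.161, 0.581 and 0.561 in COPD model lungs. On the lower side, Phlda1, which ERK signalling induces, had 9.19, 9.07 and 11.4 rescaled FPKM in BMSC-treated lungs, against 25.9, 23.9 and 20.2 in COPD model lungs and 11.4, 13.5 and 21.1 in control lungs. Zfp830, a zinc finger protein, had 3.80, 5.08 and 3.79 rescaled FPKM in BMSC-treated lungs, against 9.19, 9.002 and 9.09 in COPD model lungs and 6.76, 6.01 and 6.96 in control lungs. Ankrd37, a hypoxia-induced ankyrin protein, had 1.41, 1.62 and 1.65 rescaled FPKM in BMSC-treated lungs, against 5.06, 4.83 and 3.85 in COPD model lungs. Unadjusted p-values of these 7 genes were 0.000292 to 0.00113, and none passed after adjustment.

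With BMSC-treated 1 and control 1 left out, 4 genes passed after rescaling: Ptgs2, Chtf8, Pttg1ip and Cadm1. Pttg1ip and Cadm1 are named because they passed there, after their values were seen. Chtf8, a subunit of the replication clamp loader of sister chromatid cohesion, had 8.46, 0.232 and 0.986 rescaled FPKM in BMSC-treated lungs, against 7.45, 9.05 and 10.96 in COPD model lungs and 7.13, 8.60 and 9.13 in control lungs. Its change was -2.68 without these libraries (adjusted p = 0.034) and -1.82 ± 0.61 with them; BMSC-treated 1 lay within the range of the COPD model libraries. Pttg1ip, which carries securin to the nucleus, had 23.1, 4.14 and 2.55 rescaled FPKM in BMSC-treated lungs, against 20.3, 23.2 and 30.0 in COPD model lungs and 13.2, 23.1 and 22.6 in control lungs, with a change of -2.56 (adjusted p = 0.034). BMSC-treated 1 was again at the COPD model level. Cadm1, a cell adhesion molecule, had 6.83, 14.1 and 8.29 rescaled FPKM in BMSC-treated lungs, against 1.33, 1.32 and 1.69 in COPD model lungs and 6.23, 1.12 and 1.59 in control lungs, and it rose by 2.28 (adjusted p = 0.0475). Its 3 BMSC-treated libraries were the highest of the 9, with control 1 next to them.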

How the data were processed

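Poly(A) mRNA of mouse lung was measured in 9 libraries (BMSC-treated, COPD model and control, n = 3 each), made per the labels' protocols from 1.5 µg of Trizol-extracted total RNA with oligo dT and a stranded kit. The authors deposited FPKM per gene, per the file headers; the submitters' processing notes name FastQC, cutadapt, StringTie, Bowtie and the build mm10. Whether strand was used in counting is not given in the sources used here, so reads of overlapping or antisense genes cannot be told apart. Low values showed no clear steps of whole reads, so depth is unknown and no counting interval can be given. No value column was left unassigned.

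Genes reaching 1 FPKM in at least 3 of 9 libraries were tested. log2(FPKM + 1), as deposited and rescaled, entered 1 limma fit of all 9 libraries with a mean-variance trend and no block (limma 3.58.1, R 4.3.3). A call was an adjusted p (Benjamini-Hochberg) under 0.05. The scripts were tested on simulated data. Exact tests used scipy 1.17.1, plots matplotlib 3.10.9, and tables pandas 2.3.3 with numpy 2.4.6 under Python 3.11.15.

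The 45 gene lists (788 genes, of which 664 were tested) and the genes singled out were chosen with earlier results of these data known. The rule for named genes took Scgb1a1, the mt- genes, Ptgs2, Upk1a and the Ugt1a genes; in each fit and direction up to 12 called genes without overlap by largest change, filled to 8 by smallest p; and in each list the 3 most abundant members and the 2 of smallest p. Genome positions and promoter windows are those of RefSeq on GRCm38.p6, which is mm10, matched by symbol (11423 of 11765 tested genes with a position, 9139 with a window). Alternatives changed the pseudocount, filter, trend, library weights, block, scaling and libraries.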

Additional observations from a re-analysis of the deposited data

How the results depend on the processing

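As deposited, 15 genes passed. No gene passed without the mean-variance trend or with a pseudocount of 0.1, 1 passed with a pseudocount of 0.5, 1 with a filter of 5 FPKM and 6 with no filter. With limma's array weights 7305 passed; these weights ran from 0.081 for BMSC-treated 1 to 8.91 for control 2. With 1 of the 9 libraries omitted in turn, 0 to 35 genes passed. Using only the 6 libraries compared gave 21, and leaving out BMSC-treated 1 and control 1 gave 10. The cause of these differences was not tested. After rescaling no gene passed, also with each library left out in turn, and under median ratio and upper quartile scaling; 458 passed with array weights and 4 without BMSC-treated 1 and control 1. Of 375 values for the 20 genes named on the deposited scale, 212 kept their side of the threshold, 137 were no longer past it, 26 moved past it and 0 changed sign. Of 1813 values for 87 genes after rescaling, 1746 kept their side, 56 moved past it and 11 changed sign, for Sftpc, Ugt1a6a and Ugt1a7c. Sftpc was -0.0596 without BMSC-treated 1 (with or without control 1) and -0.104 without COPD model 1, within a range of -0.104 to 0.432 over the omitted libraries and against 0.12 with all. Ugt1a6a was 0.056 and 0.076 under median ratio and upper quartile scaling and -0.24 to 0.046 over the omitted libraries. Ugt1a7c was -0.61 with a pseudocount of 0.1, -0.080 with 0.5, and -0.56 to 0.63 over the omitted libraries. With 1 library left out, the difference in Scgb1a1 share of FPKM was -34.6 to -30.9 percentage points and that in mitochondrial share of FPKM 35.8 to 54.1.

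The samples of the compared groups share only a replicate number: deviations from the group means correlated at 0.05, -0.06 and -0.10 for numbers 1, 2 and 3 as deposited. BMSC-treated and control libraries, which share the fit but are not compared here, correlated at 0.63, 0.19 and 0.50, and COPD model and control libraries at -0.02, 0.18 and -0.17. With the number as a block, 34 genes passed as deposited with 9 libraries, among them 10 of the 15, and 95 with 6, among them all 15, and none after rescaling (smallest adjusted p 0.277 and 0.263); the exact paired p of both shares was 0.25, the smallest that 3 pairs allow. Depth is unknown for these FPKM, so low values, such as those of Upk1a and the Ugt1a genes, have no counting error attached.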
